A study of Mus musculus with 8 samples.

Results

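This account is about the baseline DNA methylation of sham-operated mouse kidney, read at single CpG dinucleotides. Its members are the CpG positions with at least 10 reads in both sham libraries, and the level of a position is the percentage of its reads that are methylated. The rule left 1107941 positions of the 2578279 that had a read in any of the 8 libraries of the series, which is 43.0%. A read was present in either sham at 1756322 positions. Positions just outside the minimum, where the lower of both depths was 8 or 9 reads, numbered 40076 and had mean levels of 61.0% in the UUO sham and 60.2% in the ischemia sham. Positions just inside it, at 10 or 11 reads, numbered 39208 and had means of 60.4% and 59.4%.

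The study compared surgical models of kidney injury by reduced representation bisulfite sequencing (RRBS). In this assay the enzyme MspI cuts DNA at CCGG, short fragments are treated with bisulfite so that unmethylated cytosine reads as thymine, and the fragments are sequenced. All mice were wild-type male C57BL/6J, and DNA came from kidney cortex and outer medulla. One sham belonged to unilateral ureteral obstruction (UUO) and the other to bilateral ischemia with reperfusion, and in neither was the ureter tied or cut or the renal pedicle clamped. The other 6 libraries were 2 of UUO at 7 days, 2 of UUO with 5AZA (1 mg per kg per day, injected into the abdomen), and 1 each of 25 minutes of ischemia with 1 week and 1 month of reperfusion. Each sham group had 1 library, so no value of a sham has a replicate check. The labels give neither the age of the mice nor the day the shams were sampled, and do not say how many animals went into a library. Levels are shares over all cells of a tissue piece, so a change within a cell type and a change in the mix of cell types cannot be told apart.

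In mammals methyl groups are placed on cytosines of CpG pairs by the DNA methyltransferases, with Dnmt1 copying the pattern at cell division and Dnmt3a and Dnmt3b adding new marks. Most CpG pairs of a differentiated cell are methylated, and the CpG islands at the promoters of many active genes are kept free of the mark. Promoters of genes used only in germ cells and 1 parental copy of imprinted control regions are known exceptions that stay methylated in somatic tissue.

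The sham methylomes were made of an unmethylated and a methylated population of CpG positions, and the position of a CpG within its fragment went with its level. The UUO sham held 68255197 reads over CpG positions and the ischemia sham 58988324. Over the members the median depth was 51 and 44 reads. A position was called a fragment edge where the depth of the shams jumped by more than 10% to a neighbouring member, or where it had no member within 250 bp on a side, and was otherwise called inside. The 463945 inside positions, 41.9% of the members, had mean levels of 23.9% in the UUO sham and 23.0% in the ischemia sham. The 643996 edge positions had means of 65.2% and 64.3%. Of the inside positions, 67.9% and 68.9% lay below 10%, 6.68% and 6.66% at 30 to 70%, and 11.8% and 11.7% at 90% or more. Of the edge positions, 22.5% and 23.1% lay below 10%, and 39.8% and 37.7% at 90% or more. Over all members the means were 47.9% and 47.0%, so the split by fragment position was far wider than the gap between the libraries.

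**Figure D1:**
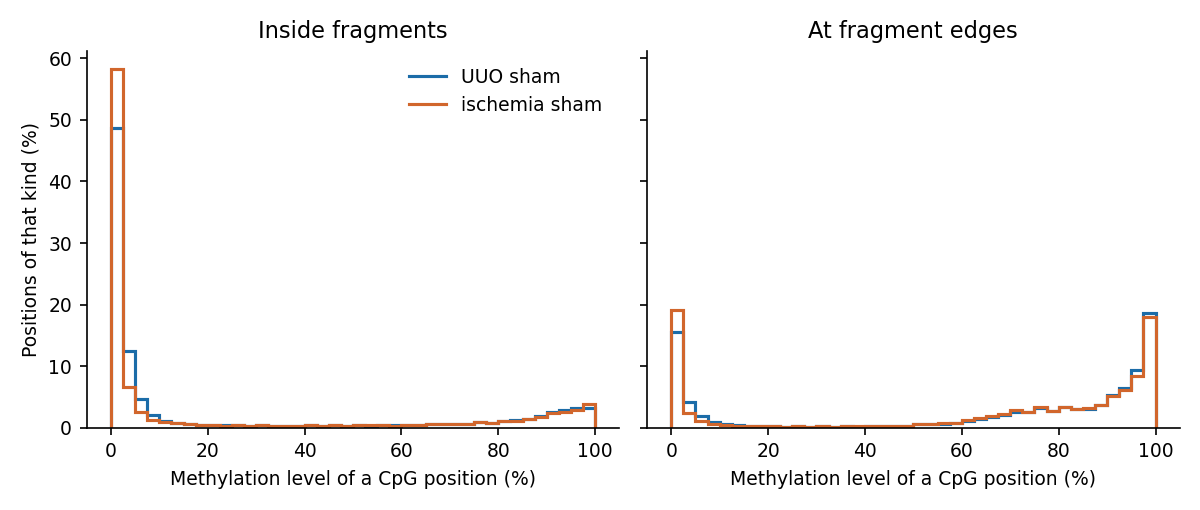
Share of positions (y axis, percent of inside or of edge positions) by methylation level (x axis, percent, in steps of 2.5) in the UUO sham (blue) and the ischemia sham (orange). Inside positions pile up near 0%, with 67.9% and 68.9% below 10%, while edge positions have their larger share near 100%.

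In promoters, where the sequence was at hand, the CpG within CCGG could be read apart from the others. Promoter sequences were tied to the measured positions by the spacing of their CpG pairs alone, without using coordinates across builds. Of 32851 promoter sequences of 300 bases from RefSeq (build GRCm38.p6), 7934 matched the mm9 positions in a single place, and 7892 of these lay on the chromosome that RefSeq gives. The 42 others, 0.529%, were left out. The matched promoters belonged to 7061 genes. Promoters with under 7 CpG pairs, 15735 of the table, could not match, so CpG-rich promoters are over-represented. Parts of 5 promoters are shown as examples of an unmethylated, a fully methylated and an intermediate locus and of places where the shams differed, with each CCGG in capitals. Each line gives the 250 bases before the annotated start, 5′ to 3′ in the sense of the gene, with coordinates in GRCm38.p6.
Polr2a (chr11:69758634-69758883, minus strand): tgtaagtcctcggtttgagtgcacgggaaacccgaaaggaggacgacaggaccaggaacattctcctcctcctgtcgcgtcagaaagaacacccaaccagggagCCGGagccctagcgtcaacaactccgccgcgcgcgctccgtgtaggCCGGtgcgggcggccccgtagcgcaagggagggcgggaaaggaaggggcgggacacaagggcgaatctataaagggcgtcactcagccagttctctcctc
Slc25a31 (chr3:40708621-40708870, plus strand): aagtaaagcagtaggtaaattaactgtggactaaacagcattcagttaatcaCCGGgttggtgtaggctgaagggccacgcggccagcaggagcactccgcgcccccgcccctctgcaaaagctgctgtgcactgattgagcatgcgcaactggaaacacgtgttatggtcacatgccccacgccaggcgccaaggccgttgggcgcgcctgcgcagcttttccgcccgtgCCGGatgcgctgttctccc
Mcts2 (chr2:152686898-152687147, plus strand): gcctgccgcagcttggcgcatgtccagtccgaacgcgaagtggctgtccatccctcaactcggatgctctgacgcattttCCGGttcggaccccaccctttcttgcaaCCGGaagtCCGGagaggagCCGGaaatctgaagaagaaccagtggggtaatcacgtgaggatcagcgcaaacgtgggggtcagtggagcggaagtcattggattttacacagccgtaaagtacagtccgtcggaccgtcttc
D130017N08Rik (chr5:143758104-143758353, plus strand): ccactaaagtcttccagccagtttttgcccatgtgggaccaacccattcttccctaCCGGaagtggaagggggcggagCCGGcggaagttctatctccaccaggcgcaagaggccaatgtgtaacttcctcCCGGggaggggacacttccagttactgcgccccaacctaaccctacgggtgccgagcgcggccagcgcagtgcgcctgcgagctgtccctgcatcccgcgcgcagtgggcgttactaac
Meioc (chr11:102665335-102665584, plus strand): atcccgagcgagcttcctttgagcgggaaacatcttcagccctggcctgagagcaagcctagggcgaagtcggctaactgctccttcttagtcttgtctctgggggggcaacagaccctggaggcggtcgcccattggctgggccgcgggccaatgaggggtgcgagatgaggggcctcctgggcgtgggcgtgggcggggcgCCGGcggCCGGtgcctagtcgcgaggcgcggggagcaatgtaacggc

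In the promoter of Polr2a, which encodes the largest subunit of RNA polymerase II, the capitals stood out from everything between them. Its CCGG at 145 bases before the start read 85.7% methylated of 56 reads in the UUO sham and 87.0% of 46 in the ischemia sham. Its CCGG at 99 bases before the start read 75.9% of 54 and 62.5% of 40. The 7 measured CpG pairs between these sites read 0% of 12 reads each in the UUO sham and 0% of 16 each in the ischemia sham. Over its 20 measured CpG pairs outside CCGG the promoter read 2.58% of 619 reads (95% exact binomial interval 1.48 to 4.16) and 0.696% of 431 (0.144 to 2.02). Here and below the reads of a promoter are summed over its CpG pairs, so a molecule counts at each pair it covers. The intervals treat these counts as separate and are too narrow.

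The same held across promoters. The 18495 CpG positions within a CCGG had mean levels of 73.0% in the UUO sham and 71.8% in the ischemia sham, and 90% of them lay between 54.5% and 90.5% in the UUO sham. The 96884 CpG positions outside CCGG had means of 2.61% and 1.65%, with medians of 1.11% and 0%. Promoters were counted here by gene and start, so a stretch shared by several of these entries was counted for each. Among such entries, 7665 had their other CpG pairs below 10% in the ischemia sham. There the UUO sham read 72.4% at the CCGG and 2.02% at the others. The CCGG level was above the others in 7665 of 7665. Classed by the UUO sham and read in the ischemia sham, 7634 of 7634 were above, with 71.6% against 1.01%. The gap narrowed as promoters were more methylated. At 30 to 70% in the ischemia sham, 41 entries read 83.3% at the CCGG and 46.6% at the others in the UUO sham. At 90% or more, 24 entries read 98.1% and 92.4%.

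Distance to the site was read only in promoters below 10% outside CCGG in both shams, which holds these levels low in advance. CpG pairs at 2 to 4 bp from the nearest CCGG had means of 4.91% and 3.93%. Those at 5 to 10 bp had 1.86% and 0.847%, and those at 41 to 80 bp 2.34% and 1.18%. Over all matched promoters, a CCGG with a measured CpG within 250 bp on both sides read 72.8% and 71.6%. One with a neighbour on a single side read 73.7% and 72.6%. Per the labels' protocols the cut ends were filled with a mix that held methylated dCTP. The part of that step in the CCGG levels was not tested. The depth rule marked 98.7% of the CCGG positions as edges, and 0.344% of inside positions in promoters were CCGG. It also marked 30.5% of the CpG positions outside CCGG, whose means there were 2.95% and 1.97%, so only 38.2% of the edge positions in promoters were CCGG.

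**Figure D2:**
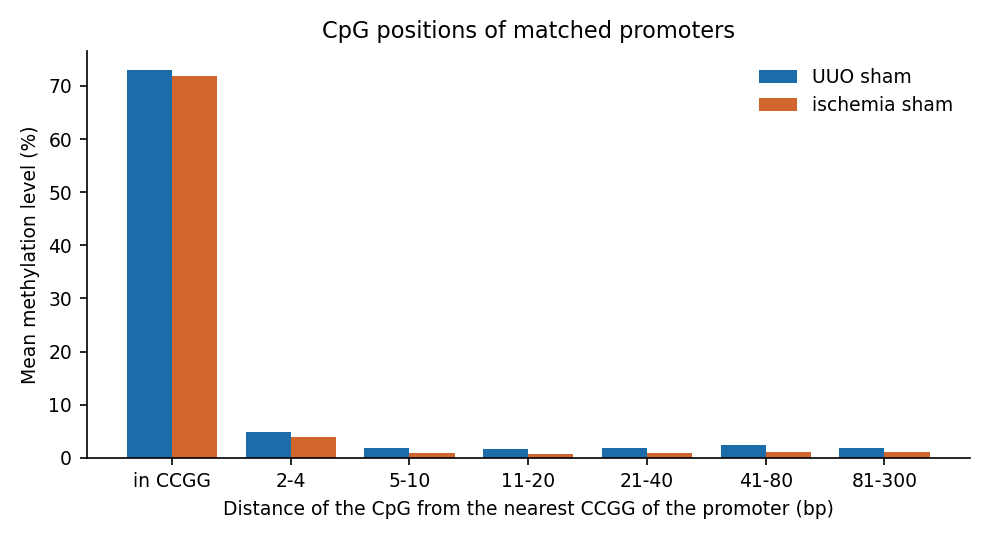
Mean methylation level (y axis, percent) of CpG positions in matched promoters by distance to the nearest CCGG of the same promoter (x axis, bp) in the UUO sham (blue bars) and the ischemia sham (orange bars). The CpG within CCGG stands at 73.0% and 71.8%, and no class beyond it exceeds 4.91%.

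Over windows of the whole measured genome the edges stood above the inside too. Windows were stretches of 1000 bp, each with at least 3 inside positions and 1 edge position, and were classed by the inside level of the sham not being read. In the 20848 windows below 10%, the UUO sham read 2.63% inside and 40.1% at the edges, a difference of 37.4 points. In the 20547 such windows read in the ischemia sham it was 1.60% and 38.7%, a difference of 37.1 points. Edges were above the inside in 99.9% of these windows in either sham. In windows at 90% or more the edges were 2.62 and 2.37 points above the inside. Where edges counted only as depth jumps or positions with no neighbour on either side, the mean of the low-window differences was 25.5 points in place of 37.3.

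The level went with CpG density. Inside fragments, windows with 3 to 5 measured CpG positions had mean levels of 70.6% in the UUO sham and 69.8% in the ischemia sham, and windows with 20 or more had 3.87% and 2.92%. The classes between stood at 57.4% and 56.5% for 6 to 9 positions and at 22.9% and 21.9% for 10 to 19. Of the inside positions in the densest class 93.9% and 94.9% lay below 10%, against 8.85% and 9.46% in the class of 3 to 5. The sparsest class, 1 or 2 positions, had inside means of 68.0% and 67.2%, but 94.1% of its 99857 positions were edges. At edges the means fell from 91.6% and 90.9% in the sparsest class to 32.1% and 30.9% in the densest.

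**Figure D3:**
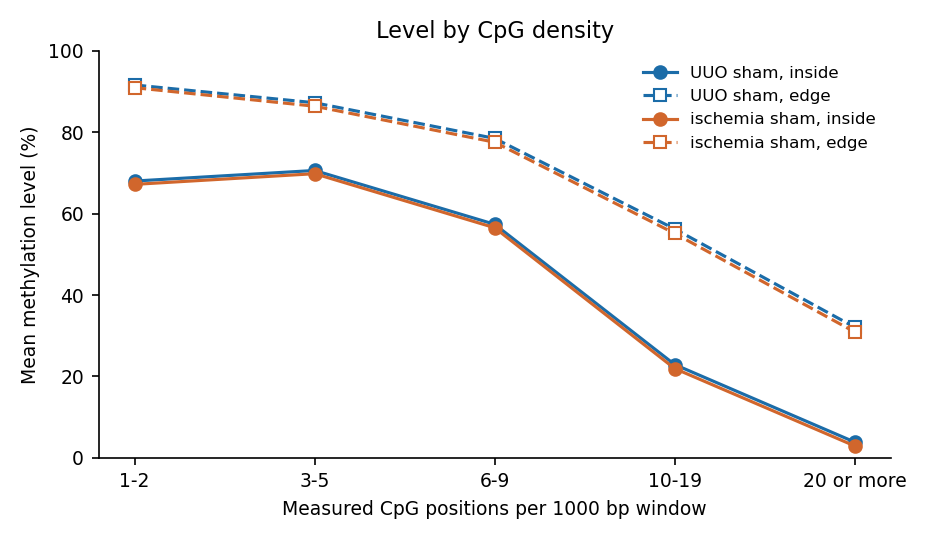
Mean methylation level (y axis, percent) by the number of measured CpG positions in the 1000 bp window (x axis) for inside positions (filled circles) and edge positions (open squares) in the UUO sham (blue) and the ischemia sham (orange). Inside levels go from 70.6% and 69.8% at 3 to 5 positions to 3.87% and 2.92% at 20 or more, and edge levels stay above them throughout.

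Chromosomes differed little once density was held. The inside mean of the autosomes ran from 20.4% on chromosome 19 to 26.1% on chromosome 10 in the UUO sham and from 19.6% to 25.2% on the same chromosomes in the ischemia sham. Chromosome 19 also had the largest share of positions in windows of 20 or more, 46.9% against a median of 42.1%. Within windows of 3 to 5 positions the autosomal inside means lay between 68.6% and 73.5% in the UUO sham, and within the densest windows between 2.98% and 5.43%. The X chromosome, present once in a male, had inside means of 24.7% and 24.0% and was covered by a median of 27 and 24 reads against 50 to 52 and 44 to 46 on autosomes. In its densest windows it read 4.06% and 3.32%, within the autosomal range in both shams. Chromosome Y held 223 members, 59 of them inside, with inside means of 74.4% and 73.6%.

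Neighbouring CpG positions inside fragments had nearly equal levels, and the likeness faded with distance. At 2 to 10 bp the mean absolute difference was 3.08 points in the UUO sham and 2.46 points in the ischemia sham over 202170 pairs. It was 6.61 and 6.40 points at 26 to 50 bp and 9.52 and 9.94 points beyond 100 and up to 250 bp. Pearson's r across pairs went from 0.96 in either sham at 2 to 10 bp to 0.92 and 0.91 beyond 100 bp. Pairs are not independent replicates, and close pairs often share the same reads. A pair of 1 inside and 1 edge position at 2 to 10 bp differed by 20.2 and 19.8 points, and a pair of edges by 35.6 and 35.4 points. For edge pairs the difference was 15.8 and 16.4 points beyond 100 and up to 250 bp and 12.6 and 13.2 points beyond 500 and up to 1000 bp. Their r was 0.25 and 0.26 at 2 to 10 bp, 0.51 and 0.52 beyond 50 and up to 100 bp, and 0.29 in either sham beyond 500 bp.

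**Figure D4:**
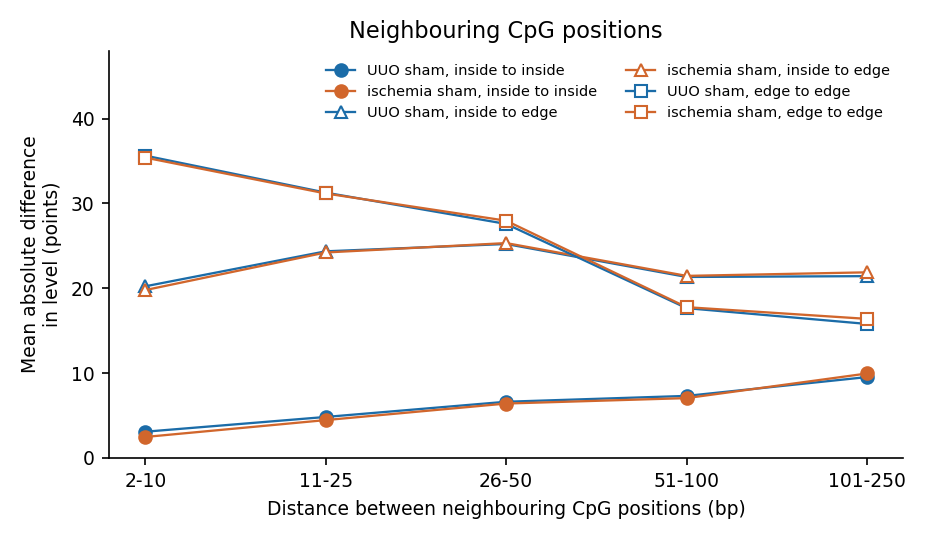
Mean absolute difference in level (y axis, percentage points) between neighbouring CpG positions by distance (x axis, bp), for 2 inside positions (filled circles), 1 inside and 1 edge position (open triangles) and 2 edge positions (open squares) in the UUO sham (blue) and the ischemia sham (orange). Inside pairs go from 3.08 and 2.46 points at 2 to 10 bp to 9.52 and 9.94 points beyond 100 and up to 250 bp, below the pairs with an edge at each distance shown.

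Intermediate levels were the least even. For inside pairs up to 50 bp apart, classed by their mean in the other sham, the difference was 1.97 and 1.14 points below 10%, 20.97 and 21.55 points at 30 to 70%, and 4.99 and 5.52 points at 90% or more. In the 30 to 70% class 44.8% and 42.5% of pairs had both positions at 30 to 70%. Of all inside positions 22335, or 4.81%, were at 30 to 70% in both shams, and 151 runs of at least 5 consecutive ones were found. The longest 3 runs held 12 positions. They lay in mm9 at chr19:7496598-7496826, with means of 53.8% and 52.5%, at chr2:174154282-174154480, with 33.5% and 37.5%, and at chr4:148326126-148326296, with 49.0% and 46.1%. Another 3 runs held 11 positions. One, at chr13:120277198-120277265 with 59.9% and 62.0%, lay in the promoters of Tmem267 and 3110070M22Rik. Another, at chr2:152512609-152512707 with 44.4% and 39.9%, lay partly in that of Mcts2 and began before it. The third lay at chr6:58856649-58856860, with 46.6% and 48.8%. In the other 6 libraries the chr2 run partly in Mcts2 stood at 46.7 to 54.3% and the one at chr2:174154282-174154480 at 18.8 to 56.9%.

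The matched promoters of sham kidney, among which CpG-rich ones are over-represented, were unmethylated with few exceptions. Of the 32851 promoter sequences, the 15735 with under 7 CpG pairs are not covered by this. Each of 7641 promoter stretches, of 7010 genes, had at least 5 measured CpG pairs outside CCGG, and only those pairs were used. A total of 7446 stretches, 97.4%, were below 10% in both shams. Another 61 were at 10 to 30% in both, 30 at 30 to 70%, 12 at 70 to 90% and 17 at 90% or more. Of the 139 X-linked stretches 134 were below 10% in both.

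The genes for methylation enzymes and readers were among the unmethylated, as were the housekeeping and tubule genes. Counts of these lists stand beside the 97.4% of all stretches below 10%, so they show nothing particular to the lists. Of that list 8 of 13 genes were measured and 8 of 8 were below 10%, from 1.39 to 3.28% in the UUO sham and from 0.0894 to 3.80% in the ischemia sham. Dnmt1 read 2.37% of 1141 reads and 0.520% of 1345. Dnmt3a read 1.93% and 0.764%, Dnmt3b 1.64% and 0.505%, and Tet2, which oxidises methylcytosine, 1.59% and 0.255%. Of 16 housekeeping genes 5 were measured, Polr2a, Eef2, Pgk1, Tbp and Eef1a1, and 5 of 5 were below 10%. Among kidney tubule genes 3 of 26 were measured and 3 of 3 were below 10%. These were Pax2, a transcription factor of kidney development, at 3.14% and 3.54%, Lrp2, the endocytic receptor megalin of the proximal tubule, at 2.04% and 1.26%, and Aqp3, a water channel of the collecting duct, at 0.952% and 1.82%. Vim, 1 of 7 fibroblast and pericyte genes, read 0.899% and 0.704%. None of 6 podocyte, 6 endothelial and 10 leukocyte genes were measured, so the cell types of the tissue label could not be compared through their promoters.

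Most measured genes of the germline list were methylated. Of 23 listed 6 were measured, and 5 of these were above 70% in both shams. Among all 7641 stretches, 40 were at 70% or more in both, including those that fell in different classes above that level. Slc25a31, a mitochondrial ADP/ATP carrier of germ cells, read 90.1% of 1433 reads in the UUO sham (88.4 to 91.6) and 93.7% of 590 in the ischemia sham (91.5 to 95.5). These reads are sums over CpG pairs with 51 to 113 and 22 to 74 reads each. In its sequence above, the lowest measured CpG pair outside CCGG, at 62 bases before the start, read 79.3% and 78.6%, and the CCGG pairs read 97.4% and 96.9% at 197 bases and 97.5% and 100% at 18 bases. Asz1 and Mael, of the pathway that silences transposons in germ cells, read 95.8% and 96.4% and 84.5% and 91.2%. Hormad1, of the meiotic chromosome axis, read 86.5% and 89.3%, and Tex101, a germ cell surface protein, 93.6% and 91.4%. Ddx4, the germ cell RNA helicase Vasa, was lower, at 64.6% and 65.2%. Germ cell genes outside the list, named after their values were seen, went both ways. Dmrtb1 and Sohlh2, transcription factors of germ cells, read 92.3% and 92.3% and 89.9% and 90.7%. Boll and Hormad2 read 42.5% and 46.0% and 54.8% and 49.5%, and Tdrd5, of the same transposon pathway, 1.74% and 0.426%.

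The promoter stretches read for imprinted genes split into a low and an intermediate set. Each gene was read at its stretch with the most measured CpG pairs outside CCGG, so the split is of stretches. Of 29 listed 7 were measured. Mcts2, a paternally expressed retrogene, read 48.7% of 892 reads (45.3 to 52.0) and 41.1% of 820 (37.7 to 44.6). Its CpG pairs outside CCGG were even, from 41.1 to 56.1% in the UUO sham and from 37.3 to 44.0% in the ischemia sham, as the run from 217 to 7 bases before the start shows. Zrsr1 read 41.7% and 29.8%, Plagl1 28.5% and 25.1%, and Igf2r, the scavenging receptor of the growth factor IGF2, 25.1% and 22.3%. Grb10 at 1.51% and 1.23%, Blcap at 2.56% and 0.998% and Gnas at 2.44% and 1.36% were below 10%. Gnas has several promoters, and another of them, with 6 measured CpG pairs, read 41.8% and 33.9%. The Grb10 stretch lay at mm9 chr11:11937397-11937634, and a run at chr11:11926785-11926859 read 41.3% and 41.1%. The Blcap stretch lay at chr2:157392081-157392320, and a run at chr2:157385842-157385985 read 51.5% and 41.8%. Of 39 Hox genes, the transcription factors of body pattern, 9 were measured and 7 were below 10%. The exceptions were Hoxd12 at 35.6% and 24.1% and Hoxa5 at 14.1% and 10.9%.

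The shams differed by a small amount in nearly all level classes. The UUO sham was 0.946 points above the ischemia sham over all members and 0.913 points over inside positions, and the difference was above 0 on 19 of 19 autosomes. With reads pooled, which gives deep positions more weight, it was 1.52 points. Chromosomes share their library and are no replicates of it. Inside positions were classed by the mean of the other 6 libraries, over the 976938 positions with 10 reads in all 8. The UUO sham was 0.897 points higher below 10%, 1.90 points at 10 to 30%, 2.14 points at 30 to 70% and 0.629 points at 70 to 90%, with a difference of -0.00503 points at 90% or more. Edge positions differed at high levels too, by 0.957, 2.04, 0.927, 1.46 and 0.523 points in the same classes from the lowest to the highest. Inside positions below 10% read 1.88% against 0.987%. Position by position, the mean absolute difference was 3.43 points inside and 5.29 points at edges, and 77 inside positions differed by 50 points or more. By a chi-square of the reads, which would average 1 under sampling alone, the shams stood at 1.48 per inside position, the UUO pair at 1.27 and the 5AZA pair at 1.22. Only positions with at least 5 methylated and 5 unmethylated reads in the pair entered, so the sets differed, with 124103 positions for the shams, 165863 for UUO and 151261 for 5AZA.

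A like gap lay between the promoters of all libraries of the obstruction series and those of the ischemia series. Promoter CpG positions outside CCGG, 92431 with 10 reads in all 8 libraries, averaged 2.57% in the UUO sham, 2.85% and 2.91% after UUO and 2.69% and 2.67% with 5AZA. They averaged 1.61% in the ischemia sham, 1.63% at 1 week and 1.68% at 1 month. The 2 ranges did not overlap. Positions read at exactly 0% were 45.7% in the UUO sham and 71.4% in the ischemia sham, with median depths of 57 and 51 reads. The share was 34.8 to 46.0% in the 5 obstruction libraries, at median depths of 48 to 76 reads, and 60.4 to 71.4% in the 3 ischemia libraries, at 51 to 82 reads. The part of depth in this share was not tested. At the CCGG of the same promoters the 5 obstruction libraries read 73.0 to 74.3% and the 3 ischemia libraries 69.6 to 71.9%. The methylated share of reads over mitochondrial CpG positions, of which each library covered 31 to 149, was 32.2 to 34.7% in the obstruction libraries and 29.9 to 30.5% in the ischemia libraries. Its relation to the promoter levels was not tested. Means over all inside positions with 10 reads in all 8 libraries did overlap between the series. They were 21.8% in the UUO sham, 22.5% and 22.6% after UUO and 20.8% and 20.4% with 5AZA. The ischemia sham had 20.8%, with 20.8% at 1 week and 21.1% at 1 month. Edge means overlapped too, at 61.5 to 63.9% in the obstruction series and 61.1 to 62.0% in the ischemia series. Series and treatment coincide in this design, and the labels give no library batch, so a difference in surgery, animals or library handling between the series cannot be told apart.

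**Figure D5:**
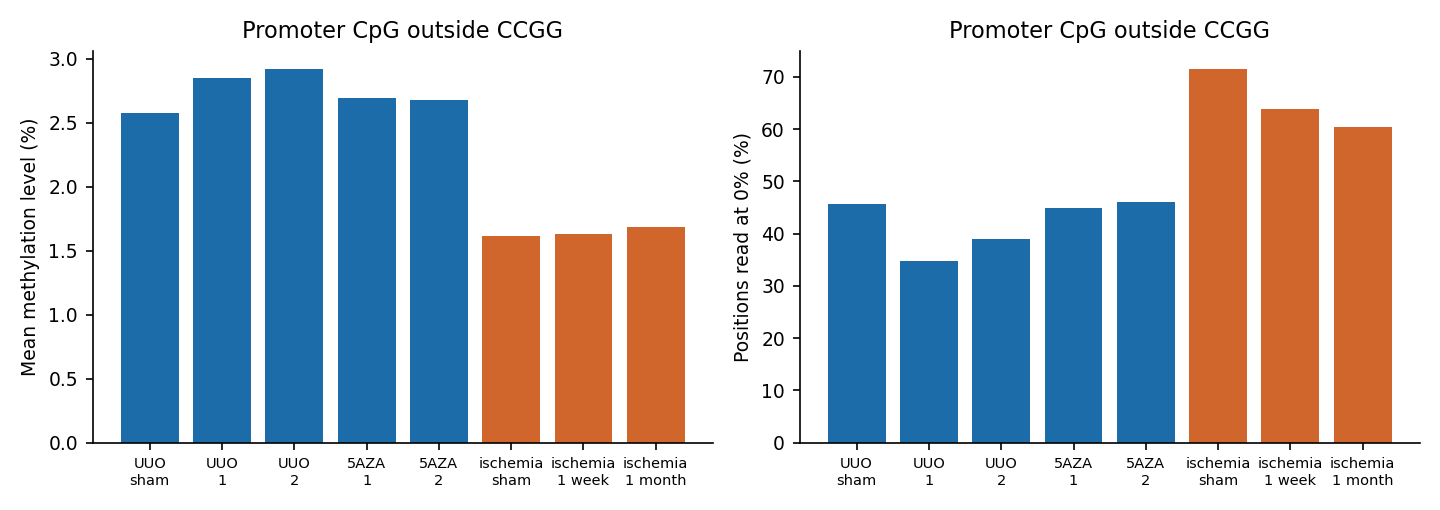
Mean level (left y axis, percent) and share of positions read at 0% (right y axis, percent) over 92431 promoter CpG positions outside CCGG in each of the 8 libraries, with the obstruction series in blue and the ischemia series in orange. The 5 obstruction libraries lie at 2.57 to 2.91% and the 3 ischemia libraries at 1.61 to 1.68%.

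Counted by locus, all 5 obstruction libraries lay above all 3 ischemia libraries in 3333 of 7287 promoters, 45.7%, and the opposite order held in 7 promoters, 0.0961%. Among windows of inside positions the shares were 23.1% and 0.982%, and among windows of all positions 9.84% and 1.54%. The series were at least 10 points apart in 4 windows of all positions with the obstruction series above (0.00427%) and in 22 with the ischemia series above (0.0235%). Among the 33898 windows of inside positions these counts were 0 and 2. Promoter by promoter, 6467 of 7641 stretches were higher in the UUO sham, 1145 in the ischemia sham and 29 equal, with a median difference of 0.937 points. Only 17 were at least 10 points higher in the UUO sham and 3 at least 10 points lower, together 0.262%.

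Few single loci differed by 10 points or more and beyond the spread of like libraries. That spread came from the UUO pair and the 5AZA pair, and the shams were assumed to vary like them. Leaving out either library of a pair removes the spread of that pair, so both choices are 1 setting with the same count. A call needed 10 points or more between the shams and an adjusted p below 0.05. Of 93730 windows in a moderated quasi-binomial model with limma, 5447 had an unadjusted p below 0.05 and 7 an adjusted p below 0.05. With the 10-point minimum, 1 window, 0.00107%, was called. The count was 3 without either UUO library and 15 without either 5AZA library, 6 higher and 9 lower in the UUO sham. The 1 window called with all libraries lay at chr5:147072001-147073000 (mm9). It read 36.2% in the UUO sham and 26.1% in the ischemia sham, a difference of 10.2 points (SE 0.820, adjusted p = 0.003). Its depth, 50139 and 55058 reads over 19 CpG positions, was far above the median of 264 reads per window. The other obstruction libraries read 27.3 to 30.7% and the ischemia libraries 28.3 to 29.2%, so the other 6 libraries lay between the shams. With edgeR, 2 windows, 0.00213%, were called. Fisher's exact test, which sees only the reads of these libraries and no spread between samples, gave 66 windows, 0.0704%, with 25 points or more between the shams. Of these 50, 0.0533%, were higher and 16, 0.0171%, lower in the UUO sham. In 17 of the 66, 25.8%, the other libraries of the series lay apart in the order of the shams, against 15.3% of all windows. By direction this was 7 of the 50 higher in the UUO sham, 14%, and 10 of the 16 lower in it, 62.5%.

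Few of these 66 windows could be read inside fragments. Among all 93730 windows 33898 had at least 3 inside positions, and among the 66 it was 14. Of the 14, 11 differed inside by at least 10 points in the same direction, 9 of them by at least 25, and 3 by under 5 points. A window with the promoters of Eml3 and Rom1, at chr19:9003001-9004000, read 54.6% and 21.2% over all its positions and 2.11% and 1.71% inside. A window at chr9:40339001-40340000 read 31.4% and 57.1%, and 0.658% and 1.52% inside, and at 20 reads per position its difference turned to 1.26 points. Among the 11, chr17:87524001-87525000 read 75.9% and 44.7% over 16 positions, and 72.0% and 33.0% inside. In that window the other obstruction libraries spanned 44.6 to 76.9%, a range as wide as the gap between the shams. The other windows named for a higher level in the UUO sham differed by 28.8 to 39.9 points and had adjusted p of 0.828 to 0.865 in the model. On the X chromosome, a pair of windows at chrX:166424001-166425000 and chrX:166428001-166429000 read 40.4% and 79.4% and 53.0% and 82.4%, and in the first of them the other 6 libraries spanned 48.9 to 85.3%.

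With edge positions left out, 16 of 33898 windows had an adjusted p below 0.05 in the same model with limma. With the 10-point minimum 7, 0.0207%, passed, 5 higher (0.0148%) and 2 lower (0.0059%) in the UUO sham. In 6 of the 7 the other 6 libraries lay between the shams, which the choice of windows by their sham difference favours. Those higher in the UUO sham included chr7:19478001-19479000 at 35.1% and 12.3% (adjusted p = 0.0279), chr13:44965001-44966000 at 36.1%, 10.1 points above the ischemia sham (adjusted p = 0.00675), and the chr5:147072001-147073000 window at 28.0% and 16.3%. The chr13 window held 4836 and 5376 reads over 9 positions, far above the median of 370 per inside window. Its other ischemia libraries read 32.0 and 33.8%, nearer the UUO sham than their own. At chr1:9536001-9537000 the shams read 12.9% and 0.856% (adjusted p = 0.0103), the other obstruction libraries 8.35 to 12.4% and the other ischemia libraries 1.13 and 1.22%, so the series did not overlap. At chr15:100374001-100375000 they read 73.2% and 97.9% (adjusted p = 0.017), the other obstruction libraries 67.0 to 72.0% and the other ischemia libraries 96.1 and 98.1%, again without overlap. The window at chr7:89920001-89921000 read 79.1% and 91.5% (adjusted p = 0.044), and it too was deep, with 2397 and 3240 reads over 9 positions. Without any test, 1236 inside windows, 3.65%, were 10 points or more apart, and in 8.41% of these the other libraries lay apart in the order of the shams, against 29.0% of all inside windows.

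The remaining window of the 7 held the 1 promoter of 7287, 0.0137%, that passed in the model with limma, that of D130017N08Rik, a RIKEN transcript. Outside CCGG it read 18.2% of 488 reads in the UUO sham and 0.284% of 352 in the ischemia sham, a difference of 18.0 points (SE 2.62, adjusted p = 0.0278). Along the sequence above, the pairs from 92 to 1 bases before the start read 15.6 to 18.8% of 64 to 68 reads in the UUO sham and 0 to 2.56% of 39 to 41 in the ischemia sham. Its CCGG at 9 bases after the start read 73.4% and 64.1%. The UUO libraries read 8.12% and 10.3%, the 5AZA libraries 5.20% and 8.32%, and ischemia 3.09% at 1 week and 4.97% at 1 month, so the shams were the extremes of their series. With the CCGG pairs put back, the difference was 14.7 points with an adjusted p of 0.632. The count of 1 promoter was 2 without either 5AZA library. Fisher's exact test gave 12 promoters, 0.165%, and edgeR 3, 0.0412%. These counts rest on the minimum difference. Without it, 273 of the 7287 promoters had an adjusted p below 0.05 in edgeR and 1 in the model with limma. In the model with limma 1434 of the 7287 had an unadjusted p below 0.05.

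The largest difference in size among the promoters tested was at Meioc, a gene needed for meiosis, and it did not pass. It read 52.2% of 249 reads and 24.7% of 77, a difference of 27.5 points (SE 11.4, adjusted p = 0.235 in the model with limma). The ischemia sham had only 12 or 13 reads at each of its positions, and the other 6 libraries read 28.1 to 54.9%. Promoters of Gm31129, Gm35932 and Fer, which encodes a tyrosine kinase, were 15.2 to 23.1 points higher in the UUO sham, with adjusted p of 0.145 to 0.34. For Gm31129 this rested on the 5 CpG pairs with 10 reads in all 8 libraries, and over its 6 pairs read in both shams it was 40.8% and 41.2%. In the other direction LOC108167929, Bean1, Gm38699, Urgcp and Gpat2 were lower in the UUO sham, with differences of -11.1 to -8.54 points and adjusted p of 0.152 to 0.355. Urgcp read 0.211% and 9.09%, with 66 reads in the ischemia sham. Gpat2, an acyltransferase of testis, read 75.5% and 84.0%.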

How the data were processed

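DNA methylation was measured by RRBS in 8 libraries of 6 groups, 2 of them shams. Per the labels' protocols, MspI-cut DNA was end-repaired with methylated dCTP, size-selected at inserts of 40 to 120 and 120 to 220 bp, converted and amplified. Per the submitters' processing notes, the aligner was Bowtie and the build mm9, while its version, the methylation caller and filters were not given in the sources used here. Each deposited table lists CpG dinucleotides with a count of reads and a count of methylated reads made by the authors, not normalized. They also hold the level as a fraction, which the authors rounded to 3 decimals and which equalled the ratio of the counts.

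Tables were joined in pandas 2.3.3 (Python 3.11.15, numpy 2.4.6) over chromosomes 1 to 19, X and Y. Windows of 1000 bp needed 3 positions with 10 reads in every library tested. Methylated and total reads per window were fitted with a quasi-binomial model of 1 mean per group over 8 libraries. The dispersion was moderated with limma 3.58.1 in R 4.3.3 and kept at 1 or above, on 2 residual degrees of freedom, with a two-sided F test of the shams and Benjamini-Hochberg adjustment. Fisher's exact tests were two-sided and used an adjusted p below 0.01, and intervals are exact binomial at 95%. Reads of windows and promoters were summed over their CpG pairs, so a molecule counts at each pair it covers. PCR copies and reads shared between CpG pairs are not told apart, so the intervals are narrower than the counting error. They hold no spread between samples. The labels do not say that libraries of a pair came from separate animals, so p-values measure only the spread between these libraries. Replicate numbers pair no samples here.

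Promoters were matched where at least 4 consecutive CpG spacings agreed, every measured position fell on a CpG of the sequence, at least 7 positions matched and the next best place had 2 fewer. Named windows were the 10 largest differences in each direction among those called, with at least 5 CpG positions, or else among those passing Fisher's test. Named promoters were those on the gene lists and the 5 largest differences in each direction among promoters with at least 5 CpG pairs outside CCGG at 10 reads in all 8 libraries. Members, lists and tests were chosen with earlier results of these data known. The reading of the edge rule, the matching thresholds, the promoter model, the comparison of series and the choice of sequences shown were made after values were seen. Alternatives were other read minimums, window sizes, edge rules and tests (edgeR 4.0.16 among them), and libraries left out.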

Additional observations from a re-analysis of the deposited data

How the results depend on the processing

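The shams have 1 library each, so their differences carry no replicate check, and windows of few reads could show only large differences. No paired analysis was possible because each sham group holds a single library. The mean sham difference of 0.946 points kept its direction in all 8 alternatives run and was 0.902 points at a minimum of 30 reads, 1.52 points with reads pooled over positions and 0.913 points with edge positions left out. CpG-poor minus CpG-rich windows, 66.3 points as a mean of both shams, came to 65.7 points at 20 reads, 66.8 points without edges and 62.8 points in windows of 300 bp. Edge minus inside levels in low windows, 37.3 points, came to 33.9 points at a depth change of 5%, 39.0 points at 20%, 37.6 points from the depths of all 8 libraries, 37.7 points at 20 reads and 25.5 points without block ends, an alternative added after seeing the data. The difference of inside neighbours up to 50 bp apart, 3.43 points, was 3.35 points at 20 reads and 18.6 points with inside and edge positions together. CCGG minus other CpG pairs in promoters, 70.3 points, was 70.4 points at 20 reads and with at least 12 matched positions, and 70.2 points without the deepest positions, all added after seeing the data.

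The count of 1 window depended on the setting. It was 0 at a minimum of 20 points, 66 by Fisher's test, 36 by Fisher's test without edges (added after seeing the data), 2 at 20 reads in every library, 7 without edges and 2 in edgeR. Leaving out a library gave 3 to 15 windows, 3 without either UUO library and 15 without either 5AZA library (6 higher and 9 lower in the UUO sham). The count of 1 promoter was 12 by Fisher's test, 3 in edgeR, 0 with CCGG pairs put back (551 had an unadjusted p below 0.05) and 1 to 2 with a library left out, 2 without either 5AZA library. Of the 66 windows, 25.8% had the other libraries of both series apart in the order of the shams, and of inside windows 10 points or more apart 8.41%. Among the 66 it was 14% of those higher and 62.5% of those lower in the UUO sham. The window at chr9:40339001-40340000 reversed to 1.26 points at 20 reads. Leaving out either library of a pair is 1 setting, since both choices remove the spread of that pair. The causes of these changes were not tested.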

Other observations

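In a small set of windows, read over all positions with edges included, the libraries of the 2 series stood well apart. The gap between the closest libraries of both series was at least 10 points, a size chosen after seeing the data, in 22 windows with the 3 ischemia libraries above and in 4 with the 5 obstruction libraries above. Over inside positions alone the counts were 2 and 0, and the 2 windows were chr15:100374001-100375000 and chr6:3151001-3152000. In 15 of the 22 all ischemia libraries were at 90% or more. The window at chr5:17415001-17416000 read 60.0 to 65.9% in the obstruction series and 92.1 to 94.9% in the ischemia series. At chr2:68387001-68388000 the ranges were 68.1 to 69.5% and 93.1 to 97.7%, and at chr6:3151001-3152000 42.3 to 54.9% and 73.6 to 84.3%. The chr5 and chr2 windows held only 3 CpG positions each, and the chr6 window 13.

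Depth moved with these levels. Each library's reads in a window were divided by its reads over all windows, and the mean share of the obstruction series by that of the ischemia series. The ratio had a median of 2.25 over the 22 windows and 0.988 over all windows. It was above 1.5 in 16 of the 22, 72.7%, against 7.87% of all windows. It was 5.19 at chr5:17415001-17416000, 2.57 at chr2:68387001-68388000 and 7.52 at chr6:3151001-3152000. The 22 windows held a median of 4 CpG positions, near the median of 5 over all windows, and at most 13. In the 4 windows of the opposite order the ratio ran from 0.172 to 1.42. The part of depth in these differences was not tested.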
